A study of Mus musculus with 6 samples.

Results

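The genes described here are the cell's machinery for making sterols and fatty acids, the targets of the sterol regulatory element-binding proteins (SREBPs). They were measured in cells sorted as macrophages from rejecting and from treated mouse heart allografts. The list holds 34 genes, chosen by pathway: 5 of the SREBP system itself, 19 of the sterol branch and 10 of the fatty acid branch. A member was measured where a probe set of the array carried its symbol and no other, and the brightest such probe set (by the mean of all 6 arrays) stood for the gene. By this rule 31 of the 34 members were measured, among 22180 genes compared in all. Idi1 and Scd2 lay on probe sets that carry several symbols and were given no value, and Acat2 was not analysed here.

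SREBPs are transcription factors held in the membrane of the endoplasmic reticulum. When sterols are scarce, the escort protein Scap carries them to the Golgi, where proteases free the active factor, and when sterols are plentiful Insig proteins retain Scap and the pathway is quiet. SREBP-2 mainly drives the enzymes that turn acetyl-CoA through mevalonate and squalene into cholesterol, and SREBP-1 mainly drives the synthesis, elongation and desaturation of fatty acids. The kinase complex mTORC1 is known to promote SREBP activity, and proliferating lymphocytes and activated macrophages are both known to draw on these pathways.

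C57BL/6 recipients had been given a heart from a fully mismatched BALB/c donor, and on day 6 graft macrophages were collected by flow cytometry. Recipients of 3 samples had been given mTORi-HDL, a nanoparticle of high-density lipoprotein loaded with an mTOR inhibitor, at 5 mg/kg on days 0, 2 and 5, and recipients of the other 3 had no treatment and rejected their grafts. No group received the lipoprotein without the inhibitor, so the carrier and its cargo cannot be told apart. The labels give neither the sort markers nor the age of the animals, and do not say whether a sample came from 1 recipient or several, so p-values measure the spread between these 6 samples only.

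Expression is given as log2 values of 1 array per sample, where a difference of 1 is a 2-fold change, and differences are mTORi-HDL minus untreated. The array mTORi-HDL 1 stood apart: the SD of its values was 1.68, where the remaining arrays had 2.04 to 2.09, and it correlated with them at 0.708 to 0.741, where they correlated with each other at 0.892 to 0.912. Across the compared genes its 90th percentile was 5.93 against 7.09 to 7.26 elsewhere, and its 10th percentile 2.998 against 2.41 to 2.48, so bright genes read low on it and dim genes read high. The differences of the members and the counts of the branches are therefore given over all 6 arrays and again without that array. Of the 31 members, 24 were brighter than the median gene, and on mTORi-HDL 1 15 members (48.4%) read below all 5 other arrays, against 23.4% of all genes.

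Macrophage transcripts were present on every array, among them Lyz2, lysozyme, at 10.80 to 11.62 and Cd68, a lysosomal membrane protein, at 8.78 to 10.87. T cell transcripts were bright too, with Cd3d at 8.37 to 10.62 in the treated and 11.31 to 11.45 in the untreated samples. On the untreated arrays Cd3d averaged 11.40, above Lyz2 at 11.01 and Cd68 at 9.36. On the treated arrays Cd3d averaged 9.76, below Lyz2 at 11.33 and Cd68 at 10.40. Levels of different probe sets were not calibrated against each other, so this order does not rank the amounts of T cell and macrophage RNA. Cd3g, which like Cd3d belongs to the CD3 complex, differed by -1.53 ± 0.34 and, without mTORi-HDL 1, -1.22 ± 0.22 (SE). Whether a lower value means fewer cells of a type or less RNA per cell cannot be told apart in such bulk samples. Which cells the members' transcripts came from was not tested. Counts on these marker lists stand beside the results below.

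No member passed limma's test over all genes at an adjusted p of 0.05, with all 6 arrays or without mTORi-HDL 1, and no other gene did (0% of 22180 genes called in either fit, with 1029 and 1547 genes at an unadjusted p under 0.05). Among members the smallest adjusted p from limma was 0.89 with every array included, and 0.455, for Hsd17b7, once mTORi-HDL 1 was left out. At an unadjusted p under 0.05, 3 members were lower over all 6 arrays (background 3.07% of all genes) and 3 without mTORi-HDL 1 (background 3.51%), with 0 higher in either fit (background 1.57% and 3.47%). Scap was the 1 member in both counts, joined by Ebp and Sc5d over all arrays and by Hsd17b7 and Elovl6 without mTORi-HDL 1.

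The direction was nevertheless uneven. Over all 6 arrays 26 of 31 members had a lower mean after treatment (83.9%, against 41.8% of all genes), with a median difference of -0.32 against 0.08 over all genes. Without mTORi-HDL 1, 21 were lower (67.7% against 53.4% of all genes), with a median of -0.25 against -0.03. The percentages of all genes were not matched for brightness, and most members were bright. Once genes dimmer than the median gene were removed, the 6-array median of the remaining genes fell to -0.12. The same filter gave -0.53 for the 15 members it kept of the sterol branch, -0.59 for 6 of the fatty acid branch and -0.26 for 4 of the SREBP system. It changed no member's difference. From the fatty acid branch, with a median of -0.31 over all 9 measured members, it removed Acaca, Acacb and Fads2. In the fit lacking mTORi-HDL 1, the filter left the all-gene median at -0.03. The treated arrays lay below all untreated arrays for 4 members over 6 arrays (12.9%, background 5.53%) and for 7 over 5 arrays (22.6%, background 12.5%), and above them for 0 members in both cases (background 5.37% and 9.75%). In both fits 20 members were lower and 4 higher.

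In the sterol branch most members had a lower treated mean. Of its 17 measured members 15 were lower over all arrays (median -0.53) and 13 without mTORi-HDL 1 (median -0.27), 76.5% against 53.4% of all genes. When each gene was set against its untreated mean, the branch's median lay at -0.39, -0.25 and -0.35 on mTORi-HDL 1, 2 and 3, and at 0.15, -0.07 and -0.15 on the untreated arrays, so the groups did not overlap on this summary. The SREBP system also lay below 0 on the treated arrays, at -0.90, -0.14 and -0.32. On the untreated arrays it lay at 0.17, -0.22 and 0.19, so its groups overlapped. The same summary over all genes was 0.27, -0.03 and -0.03 on the treated arrays and -0.04 to 0.03 on the untreated ones.

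**Figure D1:**
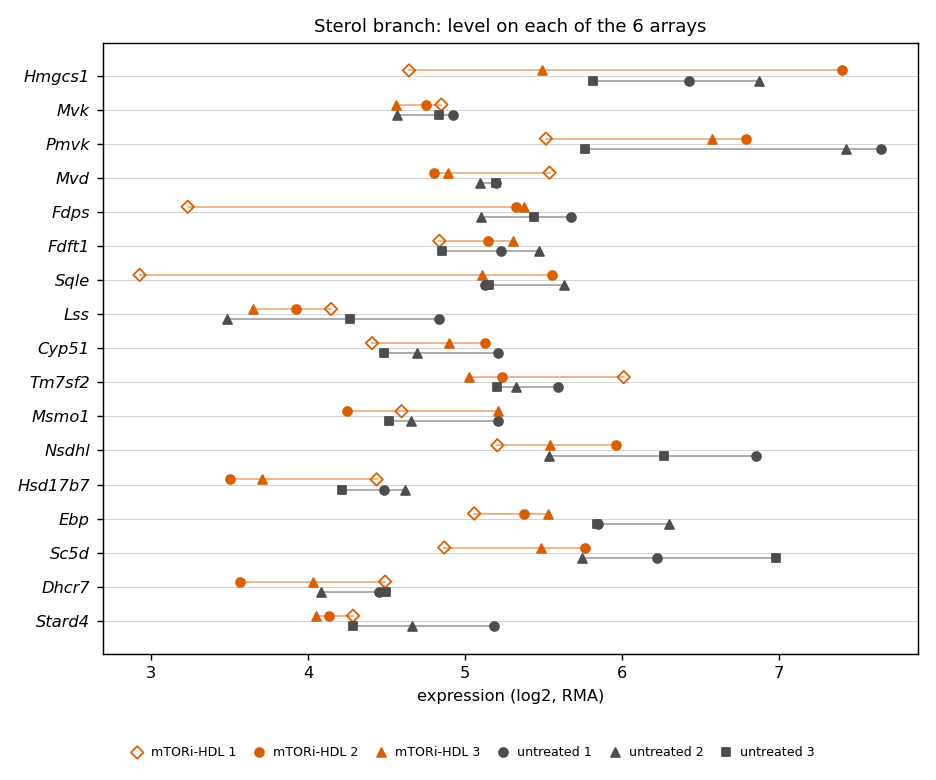
Log2 expression (RMA, horizontal axis) of the 17 measured sterol-branch genes in pathway order. Each point is 1 array, orange for mTORi-HDL with array 1 as an open diamond, grey for untreated, and each line joins the lowest and the highest array of a group; Ebp and, narrowly, Stard4 separated the groups, while Sqle and Fdps had 1 far point, the open diamond.

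Cells enter the sterol pathway with Hmgcs1, the synthase of HMG-CoA and a classical SREBP-2 target. It read 4.64, 7.40 and 5.49 on mTORi-HDL 1, 2 and 3 and 6.43, 6.87 and 5.81 on the untreated arrays. Both the lowest and the highest array were treated ones, and the difference was -0.53 ± 0.68 (SE) with all 6 arrays, and 0.07 ± 0.58 once mTORi-HDL 1 was left out. The 95% interval of the latter, -1.32 to 1.46, leaves a 2-fold difference in either direction possible.

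The next steps phosphorylate mevalonate and turn it into isoprenoid units. Mvk, mevalonate kinase, had 4.85, 4.75 and 4.56 in treated and 4.93, 4.57 and 4.83 in untreated samples, with a difference of -0.05 ± 0.26, or -0.12 ± 0.23 (SE) without mTORi-HDL 1. Pmvk, the kinase after it, had 5.51, 6.79 and 6.57 against 7.65, 7.42 and 5.77, and its difference of -0.66 ± 0.57 was -0.27 ± 0.55 (SE) without mTORi-HDL 1. For Mvd, the decarboxylase that ends this stretch, the values were 5.54, 4.80 and 4.89 against 5.20, 5.09 and 5.20, so mTORi-HDL 1 read highest and the other treated arrays lowest. Its difference was -0.09 ± 0.29 with all 6 arrays, and -0.32 ± 0.20 (SE) once mTORi-HDL 1 was left out (limma, adjusted p = 0.845).

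Fdps, which joins the units into farnesyl pyrophosphate, and Sqle, squalene epoxidase and a rate-controlling step of the later pathway, both turned on 1 array. Fdps had 3.23, 5.32 and 5.38 in treated and 5.68, 5.10 and 5.44 in untreated samples. Sqle had 2.93, 5.55 and 5.11 against 5.13, 5.63 and 5.15. Differences of -0.76 ± 0.58 and -0.77 ± 0.65 (SE) over all arrays became -0.06 ± 0.25 and 0.03 ± 0.27 without mTORi-HDL 1. The intervals of the latter, -0.65 to 0.54 for Fdps and -0.62 to 0.67 for Sqle, do not reach a 2-fold change. Between them in the pathway, Fdft1, squalene synthase, had 4.84, 5.15 and 5.30 against 5.23, 5.47 and 4.86, with overlapping groups and differences of -0.09 ± 0.29 and, without mTORi-HDL 1, 0.04 ± 0.26 (SE).

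Enzymes that close and trim the sterol rings were mixed. Lss, which folds squalene epoxide into lanosterol, had 4.15, 3.92 and 3.65 in treated and 4.84, 3.48 and 4.27 in untreated samples, with differences of -0.29 ± 0.39 and, without mTORi-HDL 1, -0.41 ± 0.40 (SE). Cyp51, the lanosterol demethylase, had 4.41, 5.13 and 4.90 against 5.21, 4.69 and 4.48, a difference of 0.02 ± 0.32, or 0.22 ± 0.28 (SE) without mTORi-HDL 1, and was 1 of the 2 sterol-branch members with a higher mean. The other was Tm7sf2, a sterol reductase, at 6.01, 5.23 and 5.02 against 5.59, 5.33 and 5.20, with a difference of 0.05 ± 0.33 (SE), which rested on mTORi-HDL 1: without it the difference was -0.25 ± 0.23 (SE). Centring each array on its median moved the median of all genes from 0.08 to -0.03, and with it both Cyp51 and Tm7sf2 had lower treated means, 17 of 17 in the branch. Msmo1, a methyl sterol oxidase, had 4.60, 4.25 and 5.21 against 5.21, 4.66 and 4.51, again overlapping, with differences of -0.11 ± 0.35 and, without mTORi-HDL 1, -0.07 ± 0.36 (SE).

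Later steps act on the sterol nucleus. Hsd17b7, the keto-steroid reductase of this pathway, read 4.44, 3.50 and 3.71 on mTORi-HDL 1, 2 and 3 and 4.48, 4.62 and 4.22 on the untreated arrays. Treated arrays 2 and 3 lay below all untreated ones, while mTORi-HDL 1 lay among them. The difference was -0.56 ± 0.33 with all 6 arrays, and -0.84 ± 0.23 (SE) once mTORi-HDL 1 was left out (limma, adjusted p = 0.455). Ebp, the isomerase that moves a ring double bond, had 5.06, 5.37 and 5.53 in treated and 5.84, 6.30 and 5.84 in untreated samples. Every treated array lay below every untreated one, with differences of -0.68 ± 0.28 (adjusted p = 0.89) and, without mTORi-HDL 1, -0.54 ± 0.24 (SE; limma, adjusted p = 0.737).

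Sc5d, the desaturase after Ebp, had 4.87, 5.77 and 5.48 in treated and 6.22, 5.75 and 6.98 in untreated samples, and mTORi-HDL 2 lay just above untreated 2. Its differences were -0.95 ± 0.40 (limma, adjusted p = 0.89) and -0.69 ± 0.38 (SE) without mTORi-HDL 1. Dhcr7, the reductase that completes cholesterol, had 4.49, 3.57 and 4.03 against 4.45, 4.08 and 4.49, a difference of -0.31 ± 0.32 (SE). As with Hsd17b7 and Mvd, mTORi-HDL 2 and 3 lay below the untreated arrays and mTORi-HDL 1 did not, and the difference without that array was -0.54 ± 0.26 (SE; limma, adjusted p = 0.765). Nsdhl, a sterol dehydrogenase acting before them, had 5.21, 5.96 and 5.54 against 6.85, 5.53 and 6.26, with a difference of -0.65 ± 0.40, or -0.46 ± 0.40 (SE) without mTORi-HDL 1.

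Stard4, a carrier of cholesterol between membranes, had 4.29, 4.14 and 4.05 in treated and 5.18, 4.66 and 4.29 in untreated samples. The groups touched at 4.29 without overlap, and the difference was -0.55 ± 0.31 and, without mTORi-HDL 1, -0.62 ± 0.30 (SE; limma, adjusted p = 0.777). Without that array, 5 sterol-branch members lay below all untreated arrays: Mvd, Hsd17b7, Ebp, Dhcr7 and Stard4 (29.4%, background 12.5%). These names were read off the values and form no group of their own.

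Promoter sequence gives a feature of the members that their choice by pathway did not use directly. RefSeq promoter windows on GRCm38.p6, 250 bases before to 50 after a gene's start, were at hand for 27 of the 34 members. A CCAAT box, the site of the NF-Y factor that SREBPs are known to work with, was searched as CCAAT on both strands and lay in a window of 22 members (81.5%), against 41.6% of the 16990 compared genes with a window and 37.4% of all 32851 windows. Sterol-branch genes held it in 14 of 15 cases, the SREBP system in 4 of 5 and the fatty acid branch in 4 of 7. A sterol regulatory element, searched as TCACNCCAC on both strands, matched only Hmgcs1 (3.7% of members, 1.43% of compared genes), and an SREBP-type E-box, TCACNTGA, matched only Insig2 (3.7% and 4.83%). A gene with several windows counted once, the CCAAT letters do not overlap the other motifs' letters in the 3 windows shown, and a match is only a match of letters.

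The 3 windows below, the 250 bases before the start on the gene's strand, show Hmgcs1 as the member with the sterol regulatory element and Ebp and Hsd17b7 as sterol-branch members with the lower values described above. Hmgcs1 lies on the plus strand (chr13:119690101-119690350), and Ebp (chrX:8193513-8193762) and Hsd17b7 (chr1:169969206-169969455) on the minus strand. Capitals mark CCAAT or its reverse complement and, in Hmgcs1, the element that begins 137 bases before the start.
Hmgcs1: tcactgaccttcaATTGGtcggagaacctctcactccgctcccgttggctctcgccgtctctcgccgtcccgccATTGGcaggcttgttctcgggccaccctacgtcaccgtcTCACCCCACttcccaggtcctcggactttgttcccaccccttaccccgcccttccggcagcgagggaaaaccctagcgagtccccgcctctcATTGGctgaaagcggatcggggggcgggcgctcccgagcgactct
Ebp: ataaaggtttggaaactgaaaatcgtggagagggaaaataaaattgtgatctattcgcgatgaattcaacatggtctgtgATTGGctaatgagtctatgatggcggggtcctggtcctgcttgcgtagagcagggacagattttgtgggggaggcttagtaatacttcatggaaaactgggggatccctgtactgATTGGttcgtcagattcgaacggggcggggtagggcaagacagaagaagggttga
Hsd17b7: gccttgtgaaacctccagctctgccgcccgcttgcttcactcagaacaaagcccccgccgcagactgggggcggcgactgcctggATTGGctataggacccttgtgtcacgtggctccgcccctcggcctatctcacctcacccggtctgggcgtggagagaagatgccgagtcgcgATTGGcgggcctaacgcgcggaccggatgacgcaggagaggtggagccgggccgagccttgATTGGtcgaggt

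Before its start Hmgcs1 holds 3 CCAAT boxes, at 45 to 237 bases, Ebp holds 2, at 55 and 170, and Hsd17b7 holds 3, at 12 to 165.

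In the fatty acid branch 7 of 9 measured members were lower over all arrays (median -0.31) and 6 without mTORi-HDL 1 (median -0.21; 66.7% against 53.4% of all genes). Its per-array median lay at -0.21, -0.20 and -0.28 on the treated arrays and at 0.27, -0.33 and 0.12 on the untreated ones, so untreated 2 lay below all treated arrays and the groups overlapped. Only Elovl6 separated the groups (11.1% of the branch, background 5.53% over all arrays and 12.5% without mTORi-HDL 1).

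**Figure D2:**
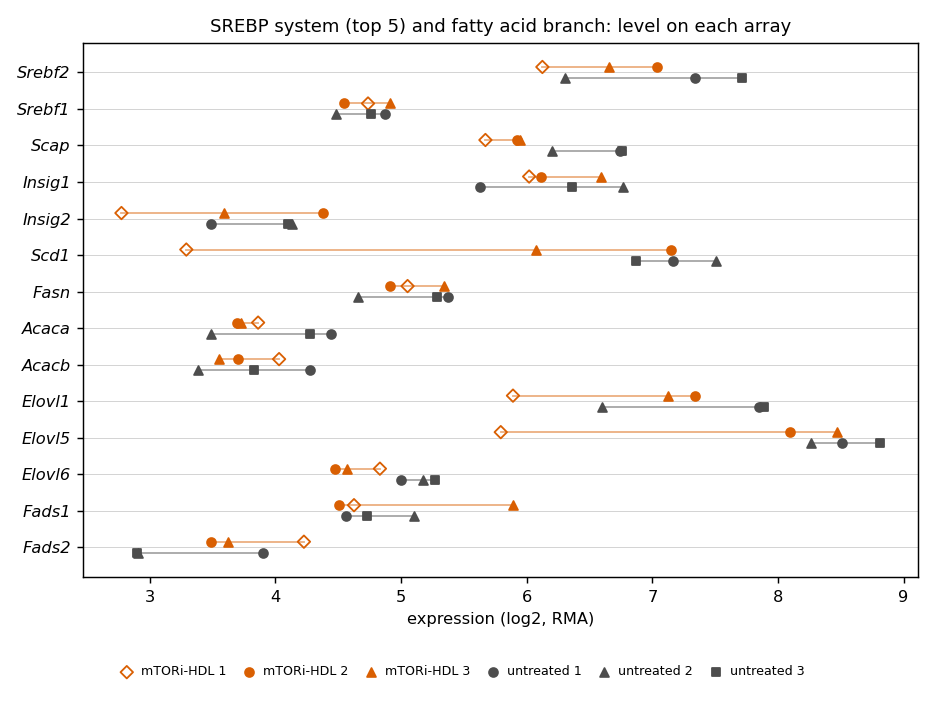
Log2 expression (RMA, horizontal axis) of the 5 genes of the SREBP system and the 9 measured fatty acid genes, drawn as 1 point per array, orange for mTORi-HDL with array 1 as an open diamond, and grey for untreated. Lines span the lowest to the highest array of each group; Scap and Elovl6 separated the groups, and the wide treated range of Scd1 and Elovl5 ended at the open diamond.

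The enzymes that build the fatty acid chain overlapped between the groups. Fasn, fatty acid synthase, had 5.05, 4.91 and 5.34 in treated and 5.38, 4.66 and 5.29 in untreated samples, a difference of -0.00 ± 0.30 (SE). Without mTORi-HDL 1 it was 0.02 ± 0.30 (SE), with a 95% interval of -0.70 to 0.74. Acaca, the acetyl-CoA carboxylase that commits carbon to synthesis, had 3.86, 3.70 and 3.73 against 4.44, 3.49 and 4.28, with differences of -0.31 ± 0.32 and, without mTORi-HDL 1, -0.36 ± 0.33 (SE). Acacb, its relative at the mitochondrion, had 4.03, 3.70 and 3.55 against 4.28, 3.38 and 3.83, with differences of -0.07 ± 0.32 and, without mTORi-HDL 1, -0.20 ± 0.30 (SE). In all 3 genes untreated 2 read lowest of the 6 arrays and the other untreated arrays were at or above most treated ones.

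Among the elongases, Elovl6, which lengthens palmitate-type saturated acids, had 4.83, 4.47 and 4.57 in treated and 5.00, 5.17 and 5.27 in untreated samples. All treated arrays lay below all untreated ones, with differences of -0.52 ± 0.25 (adjusted p = 0.89) and, without mTORi-HDL 1, -0.63 ± 0.21 (SE; limma, adjusted p = 0.586). Elovl5, which lengthens polyunsaturated acids, had 5.79, 8.09 and 8.47 against 8.51, 8.26 and 8.82. Its difference of -1.08 ± 0.67 was -0.25 ± 0.26 (SE) without mTORi-HDL 1. Elovl1, of very long saturated chains, had 5.89, 7.34 and 7.12 against 7.85, 6.60 and 7.89, and overlapped, with differences of -0.66 ± 0.51 and, without mTORi-HDL 1, -0.21 ± 0.42 (SE).

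Scd1, the stearoyl-CoA desaturase that makes monounsaturated acids, had the lowest mean difference of all members over 6 arrays, -1.67 ± 0.89 (SE; limma, adjusted p = 0.89). It read 3.29, 7.15 and 6.08 on mTORi-HDL 1, 2 and 3 and 7.16, 7.50 and 6.87 on the untreated arrays. mTORi-HDL 1 lay far below all others, mTORi-HDL 2 lay within the untreated range and mTORi-HDL 3 below it, and the difference without the first was -0.57 ± 0.37 (SE; adjusted p = 0.845). Close copies of this gene exist, and the probe sets of Scd2 carry several symbols, so signal shared between copies was not separated.

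Fads1 and Fads2, desaturases of polyunsaturated acids, were the members of this branch with a higher treated mean in both fits. Fads2 had 4.23, 3.48 and 3.62 in treated and 3.90, 2.91 and 2.90 in untreated samples, with a difference of 0.54 ± 0.38 and, when mTORi-HDL 1 was left out, 0.31 ± 0.35 (SE). For Fads1 the values were 4.63, 4.51 and 5.89 against 4.56, 5.10 and 4.73, and only mTORi-HDL 3 lay above the untreated range. The Fads1 difference was 0.21 ± 0.42 and, when mTORi-HDL 1 was left out, 0.40 ± 0.42 (SE). Neither gene passed (limma, adjusted p = 0.89 for Fads2 and 0.924 for Fads1 with every array included).

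Within the SREBP system the factors themselves did not separate the groups. Srebf2, which encodes SREBP-2, had 6.12, 7.04 and 6.66 in treated and 7.34, 6.31 and 7.71 in untreated samples, a difference of -0.51 ± 0.43 and, when mTORi-HDL 1 was left out, -0.27 ± 0.43 (SE). Srebf1, which encodes SREBP-1, had 4.74, 4.54 and 4.91 against 4.87, 4.48 and 4.76, with a difference of 0.03 ± 0.26 and, without mTORi-HDL 1, 0.02 ± 0.24 (SE; 95% interval -0.56 to 0.60). A transcript level does not measure the cleaved, active protein.

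Scap was the 1 gene of the system that separated the groups, at 5.67, 5.93 and 5.95 in treated and 6.74, 6.20 and 6.76 in untreated samples. Its differences were -0.72 ± 0.28 (adjusted p = 0.89) and, without mTORi-HDL 1, -0.63 ± 0.26 (SE; limma, adjusted p = 0.70). A second, dimmer probe set of Scap did not follow, at 4.52, 3.77 and 3.99 against 4.33, 3.70 and 3.65, a difference of 0.20. Insig1, both a retention factor and an SREBP target, had 6.02, 6.11 and 6.59 against 5.63, 6.77 and 6.36, a difference of -0.01 ± 0.36, or 0.10 ± 0.37 (SE) without mTORi-HDL 1. Insig2, the isoform less dependent on SREBP, had 2.77, 4.38 and 3.59 against 3.49, 4.13 and 4.10, and its difference of -0.32 ± 0.44 turned to 0.08 ± 0.34 (SE) without mTORi-HDL 1.

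The members also differed among the untreated samples. Untreated 2 was the lowest untreated array for 15 of 31 members (48.4%, against 39.6% of all genes), among them Srebf2, Scap, Nsdhl, Sc5d, Lss, Elovl1, Acaca and Fasn, and untreated 1 for 5 (16.1% against 29.2%). In the sterol branch untreated 3 was lowest for 9 of 17 members and untreated 1 for 1. Leaving out untreated 1 brought the branch's median from -0.53 to -0.30.

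**Figure D3:**
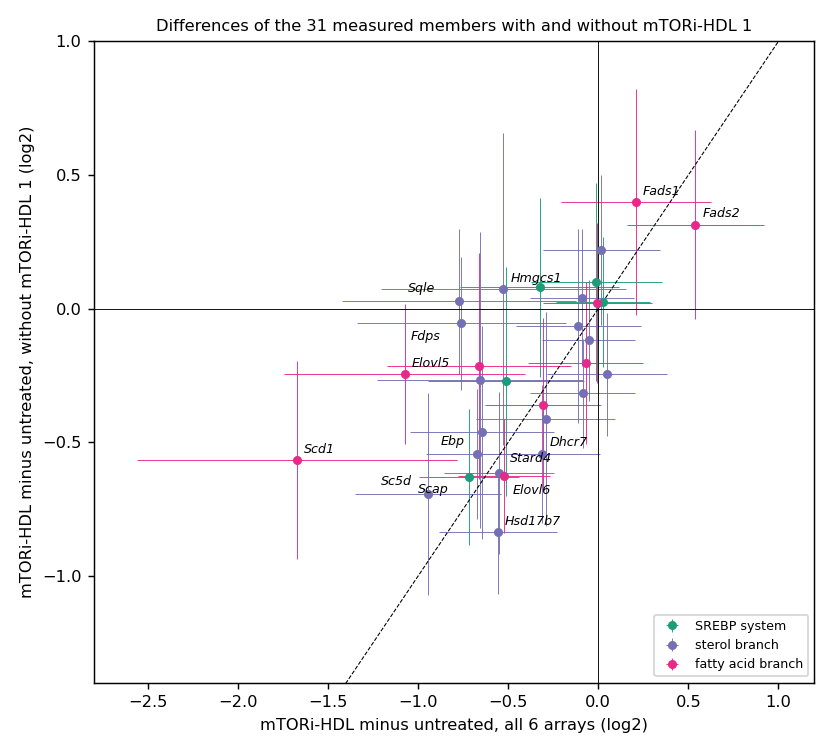
Difference in log2 expression, mTORi-HDL minus untreated, of each measured member over all 6 arrays (horizontal axis) and without mTORi-HDL 1 (vertical axis), with bars of 1 standard error and a dashed line of equality. Scd1, Elovl5, Sqle, Fdps and Hmgcs1 lie above the line by over 0.5, and Hsd17b7, Sc5d, Scap, Elovl6 and Stard4 stay below -0.6 on the vertical axis.

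Leaving out mTORi-HDL 1 moved 5 of 31 members by over 0.5, a share similar to that of all genes (3607 of 22180). These were Scd1, Elovl5, Sqle, Fdps and Hmgcs1, all toward 0. After that 14 of 31 members had a 95% interval within a 2-fold change in either direction, against 10 over all arrays. Of all 22180 genes 13782 had such an interval without mTORi-HDL 1, and 8221 over all arrays, in both fits a larger share than of the members. Without that array the half-width of the intervals had a median of 0.72 for the members and 0.64 for all genes. For the other 17 members the interval without mTORi-HDL 1 reached a 2-fold change in at least 1 direction.

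Other genes of the pathways, from lists drawn up beside the members, were counted in the same fits. Of 7 measured further sterol genes 3 were lower and 4 higher over all arrays (median 0.06), and 5 were lower and 2 higher when mTORi-HDL 1 was left out (median -0.08). In both fits 2 of them reached an unadjusted p under 0.05, with lower treated means (28.6%, background 3.07% and 3.51%). These were Ggps1, which makes the geranylgeranyl group that anchors small GTPases, at 3.55, 6.22 and 5.96 in treated and 6.66, 7.82 and 6.81 in untreated samples, and Lbr, a sterol reductase that also tethers chromatin at the nuclear envelope. Lbr read 5.61, 7.73 and 6.99 against 8.54, 7.87 and 9.06. Both separated the groups (28.6% of the list, background 5.53%), with differences of -1.85 ± 0.72 and -1.71 ± 0.57 (SE) for Ggps1 and Lbr. Without mTORi-HDL 1 these were -1.003 ± 0.38 and -1.13 ± 0.40 (SE; limma, adjusted p = 0.663 and 0.619). In that fit both still lay below all untreated arrays (background 12.5%), and 2 further genes of the list lay above them (28.6%, background 9.75%). The other 3 of the 10 genes on that list were not analysed here.

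Among 9 measured genes that process or degrade the SREBP system, 4 were higher and 5 lower over all arrays (median -0.01), and 5 higher and 4 lower without mTORi-HDL 1 (median 0.13). In the latter fit 3 lay below all untreated arrays (33.3%, background 12.5%) and 1, Erlin1, above them (11.1%, background 9.75%). Over all 6 arrays 0 separated the groups in either direction (background 5.53% lower and 5.37% higher). Erlin1, a membrane protein known to hold the SREBP-Scap-Insig complex in check, had 3.62, 7.47 and 7.32 in treated and 5.45, 5.68 and 5.41 in untreated samples. mTORi-HDL 1 read lowest and the other treated arrays highest. Its difference was 0.62 ± 0.96 with all 6 arrays, and 1.88 ± 0.22 (SE) once mTORi-HDL 1 was left out (limma, adjusted p = 0.121), which did not pass either.

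Further fatty acid genes were evenly divided over all arrays, 11 higher and 11 lower of 22 (median -0.00). In each direction 1 was at an unadjusted p under 0.05 (4.5%, background 3.07% lower and 1.57% higher). Of the 22, 4 lay below all untreated arrays (18.2%, background 5.53%) and 2 above them (9.1%, background 5.37%). Without mTORi-HDL 1, 7 were higher and 15 lower (median -0.21), 68.2% lower against 53.4% of all genes. In that fit 7 lay below all untreated arrays (31.8%, background 12.5%) and 2 above them (9.1%, background 9.75%). Hacd3, a dehydratase of the elongation cycle, had 4.44, 4.85 and 4.43 in treated and 5.51, 6.24 and 5.74 in untreated samples, a difference of -1.26 ± 0.30 (SE; limma, adjusted p = 0.702). Hacd1, its muscle-enriched relative, had 4.36, 4.40 and 3.15 against 2.88, 2.58 and 2.57, a difference of 1.29 ± 0.39 (SE; limma, adjusted p = 0.89). Both separated the groups, in opposite directions, and in both the direction was the same without mTORi-HDL 1 (-1.19 and 1.10).

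Genes of the liver X receptor (LXR) system, which responds to oxysterols and promotes sterol export, were counted in the same way. Of 9 measured genes 6 were higher over all arrays (median 0.46), 66.7% against 58.2% of all genes, and 2 lay above all untreated arrays (22.2%, background 5.37%). When mTORi-HDL 1 was left out, 7 were higher (median 0.83), 77.8% against 46.6% of all genes, and 6 lay above all untreated arrays (66.7%, background 9.75%). In each fit 1 gene, the receptor gene Nr1h3, lay below all untreated arrays (11.1%, background 5.53% and 12.5%). Nr1h3 had 3.86, 4.28 and 4.55 in treated and 4.77, 5.31 and 4.56 in untreated samples. Its difference was -0.65 ± 0.32 and, without mTORi-HDL 1, -0.46 ± 0.29 (SE). Ch25h, which makes the oxysterol that blocks SREBP processing, had 8.86, 8.59 and 7.61 in treated and 6.80, 5.87 and 6.07 in untreated samples. Its difference was 2.11 ± 0.42 and, without mTORi-HDL 1, 1.86 ± 0.40 (SE; limma, adjusted p = 0.622 and 0.328). A dimmer second probe set of Ch25h had a difference of 0.36. Apoe, the apolipoprotein of sterol export, had 6.51, 6.04 and 6.43 against 5.28, 5.54 and 5.41, a difference of 0.92 ± 0.26 and, without mTORi-HDL 1, 0.83 ± 0.23 (SE; limma, adjusted p = 0.89 and 0.47).

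The exporter Abca1 had 4.96, 5.60 and 6.99 in treated and 4.77, 5.56 and 4.17 in untreated samples, and Cyp27a1, which makes another oxysterol, had 3.83, 5.60 and 4.72 against 4.30, 4.35 and 3.78. In both, mTORi-HDL 1 lay among the untreated arrays and the other treated arrays above them, with differences of 1.02 ± 0.58 and 0.57 ± 0.46 (SE) with every array and 1.46 ± 0.53 and 1.01 ± 0.34 (SE) without mTORi-HDL 1 (limma, adjusted p = 0.627 and 0.571). None of these genes passed the test over all genes.

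**Figure D4:**
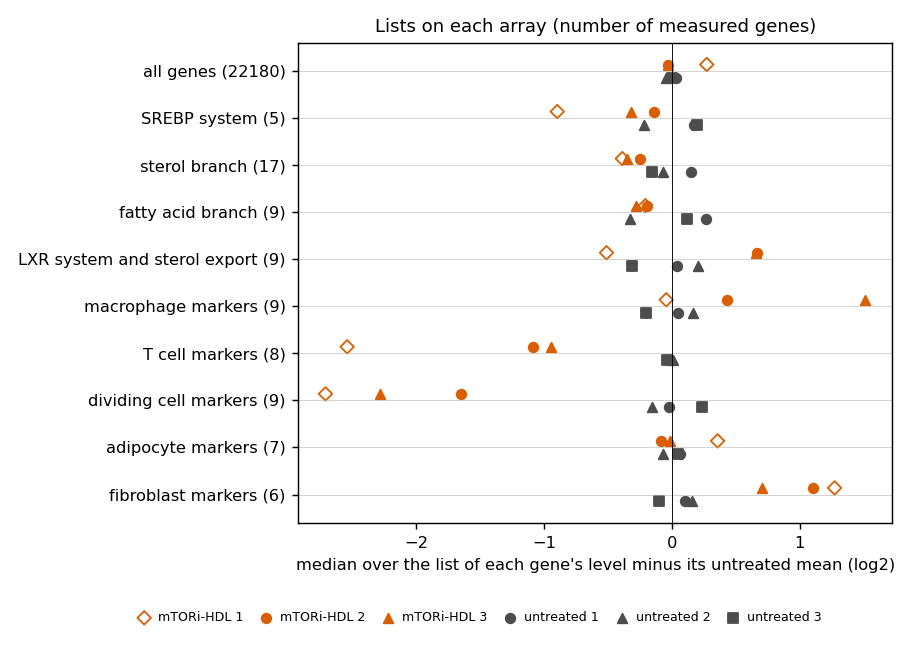
Median over each list of a gene's log2 level minus its untreated mean (horizontal axis), by array, with the number of measured genes in brackets; orange points are mTORi-HDL, with array 1 as an open diamond, and grey points untreated. The sterol branch lies between -0.39 and -0.25 on treated arrays, while T cell and dividing cell markers reach further below 0.

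Markers of other cells moved with the treatment on the same arrays. All 8 measured T cell markers were lower, with median differences of -1.51 and, when mTORi-HDL 1 was left out, -0.97, and their summed log2 level was 56.2 to 69.7 in treated and 77.4 to 77.8 in untreated samples. All 9 measured markers of dividing cells were lower, with median differences of -2.24 and -1.90 in the fits with and without mTORi-HDL 1, with summed levels of 44.0 to 55.4 against 69.0 to 73.2. Among these, Top2a, a topoisomerase of mitosis, had 3.77 to 8.02 against 9.06 to 9.40, and Rrm2, of nucleotide synthesis, had 6.13 to 8.20 against 8.89 to 9.52. The part of T cells or of cell division in the lower sterol-branch values was not tested.

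Of 9 macrophage markers 7 were higher over all arrays (median 0.35; 77.8% against 58.2% of all genes). Without mTORi-HDL 1, 8 were higher (median 1.03; 88.9% against 46.6%). Their summed level was 58.2 to 76.3 in treated and 61.4 to 64.9 in untreated samples, and lowest on mTORi-HDL 1. Set against untreated means, the list's median lay at -0.04 on mTORi-HDL 1 and at 0.43 and 1.51 on mTORi-HDL 2 and 3. The part of macrophages in the higher LXR-system values was not tested. Adipocyte markers, of cells rich in the fatty acid branch, had summed levels of 25.7 to 28.7 against 25.2 to 25.9, with 0 of 7 lower at an unadjusted p under 0.05 (background 3.07%). Of the 7, 6 were higher over all arrays (85.7% against 58.2% of all genes) and 4 without mTORi-HDL 1 (57.1% against 46.6%). In both fits 1, Retn, lay above all untreated arrays (14.3%, background 5.37% and 9.75%). It differed by 0.47 ± 0.25 and, without mTORi-HDL 1, 0.53 ± 0.21 (SE). Lipe and Plin1, the brightest of that list, differed by -0.19 ± 0.26 and 0.26 ± 0.31 (SE), or by -0.07 ± 0.22 and 0.00 ± 0.22 (SE) without mTORi-HDL 1. All 6 fibroblast markers were higher in both fits (median 1.12 and 0.95), with Col1a2 and Dcn at differences of 2.19 and 2.22, or 2.26 and 2.56 without mTORi-HDL 1. Of 6 cardiomyocyte markers 5 were higher with every array included (median 0.34; 58.2% of all genes were higher in that fit) and 3 when mTORi-HDL 1 was left out (median 0.09). Tnnt2 and Myl2 had differences of 1.17 and 0.35, and of 1.56 and 0.24 without that array. Their part in the values of the members was not tested.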

How the data were processed

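Total RNA (15 ng) was amplified with NuGEN pico WTA and hybridised to 1 array per sample, 3 mTORi-HDL and 3 untreated. The deposited log2 values were made by the authors with RMA in Affymetrix Expression Console, per the submitters' processing notes; versions, genome build and probe-set filters are not given in the sources used here. Of 41345 probe sets, 23521 carried 1 symbol, 1814 several and 16010 none. The brightest probe set of each gene gave 22180 genes, tested with limma 3.58.1 in R 4.3.3 (two-sided, Benjamini-Hochberg over all genes, threshold 0.05), over all 6 arrays and without mTORi-HDL 1. Arrays carry no read depth, and their number limits the precision. The members and lists were chosen with earlier results of these data known. All measured members were named, with up to 4 genes per further list at an unadjusted p under 0.05 in either fit, and the 2 brightest markers per cell type. Nr1h3 and Retn were named besides these, after their values were seen. Scripts were tested on simulated data. Same-numbered samples correlated at 0.136, 0.135 and -0.024 in their deviations from group means, so the numbers were not taken as pairs. Alternatives covered normalization, filters, array weights, a replicate block, probe-set choice and leaving out each array.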

Additional observations from a re-analysis of the deposited data

How the results depend on the processing

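Over 18 alternatives no member passed an adjusted p of 0.05 in limma, and 14 of 31 members kept their direction in every one that held them, 13 lower and 1 higher (Fads2). Of the 14, 11 were in all 18, and 3, Fads2 among them, in 16, since the filter at the median removed them. Not every alternative could turn a direction. The filters, limma's trend and robust setting and the replicate block over all 6 arrays left each difference of the same arrays as it was. The mean of all probe sets could change only Scap among the members. How many of all genes kept their direction was not counted. No gene passed over all 6 arrays, and with array weights 1 did, H2bc12, named after its values were seen. A filter moved a branch's median only by removing members, and the cause of the other moves below was not tested. The sterol branch's median of -0.53 was -0.34 with cyclic loess, -0.27 with array weights, and between -0.61 and -0.27 when 1 array was left out. Without mTORi-HDL 1 it was -0.26 with quantile normalization, -0.25 with the filter at the median and -0.092 with the replicate block. The fatty acid branch's median of -0.31 was -0.59 with the filter at the median, which kept 6 of its 9 members. It was between -0.51 and -0.12 when 1 array was left out, and -0.012 without mTORi-HDL 1 and with the replicate block. The SREBP system's median of -0.32 ranged from -0.72 to 0.024 when 1 array was left out, and was 0.019 without mTORi-HDL 1 and with quantile normalization. Over all 6 arrays the replicate block could not move the medians, since each replicate number has 1 array in each group, so their values there are no check. It left 0 genes past the threshold in limma, and 1183 genes against 1029 at an unadjusted p under 0.05. With 4 residual degrees of freedom, and 3 without mTORi-HDL 1, small differences could not be resolved.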
